A study of Mus musculus with 24 samples.

Results

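The comparison set livers with activated mouse CAR against livers without CAR under the same drugs. It took the 4 arrays of wild-type mice given TCPOBOP or phenobarbital (written phenobarbitol in the labels). Against them stood the 4 arrays of CAR knockout mice given the same drugs. These 8 of the 24 arrays of the study were defined by genotype and drug. Earlier results of these data were known when the comparison was chosen. CAR (constitutive androstane receptor, gene Nr1i3) is a nuclear receptor that rests in the cytoplasm of hepatocytes. Once activated it enters the nucleus, binds DNA together with its partner RXR and switches on genes of drug metabolism. TCPOBOP is a ligand of mouse CAR, whereas phenobarbital activates the receptor without binding to it, and both are known to enlarge the mouse liver.

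All mice were labelled female, of mixed C57BL/6x129Sv background, and their age is not given in the sources used here. The knockout mice lacked the mouse CAR gene. TCPOBOP was injected once at 3 mg/kg on the first of 3 days, with corn oil on the other days, and phenobarbital was injected at 100 mg/kg on each day. All injections were intraperitoneal, and livers were taken 6 h after the last one. Wild-type and knockout mice on CITCO (30 mg/kg per day), a ligand of human CAR, and on corn oil alone served for further comparisons. The 8 arrays of knockout mice that carried human CAR as a transgene, under the albumin promoter of the mouse, entered only the estimate of spread. Each group held 2 mice with 1 array per mouse, and this number limits the precision of every value.

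Values are log2 expression from RMA, a method that summarises the probes of a gene on an array. Differences are wild type minus knockout on that scale, with both drugs weighted equally, and carry the standard error (SE) of a limma fit to all 24 arrays. Adjusted p-values are Benjamini-Hochberg values of that fit over 9167 genes, and a gene was called, and said to have risen or fallen, when its adjusted p was under 0.05. "Higher" and "lower" describe wild type relative to knockout. In whole liver, fewer cells of a type and less RNA per cell cannot be told apart.

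The labels were first checked on the targeted gene. Nr1i3 read 7.03 and 6.84 in wild type on TCPOBOP and 7.98 and 7.92 on phenobarbital, against 5.36 and 5.21 in knockout on TCPOBOP and 5.20 and 5.38 on phenobarbital. All 4 wild-type arrays lay above all 4 knockout arrays, with a difference of 2.15 (SE 0.13, adjusted p = 3.44e-08). The sources used here do not say whether its probe set lies inside the deletion. Of the 8 arrays, the knockout phenobarbital array of replicate 2 stood apart, at -22.3 on the first principal component, while the other 7 lay between -8.6 and 8.97. The mean 3' minus 5' log2 signal of Actb and Gapdh, which rises as RNA degrades, was 0.36 to 0.415 on the wild-type arrays and 0.45 to 0.508 on the knockout arrays. Hepatocyte markers averaged 12.01 to 12.14 in wild type and 12.28 to 12.38 in knockout, with 13 of 17 tested. Neither range overlapped between the genotypes, and the part of either in the results was not tested.

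With the activators, 702 of the 9167 genes were called (7.66%), 369 higher and 333 lower in wild type. Over all genes tested, 4.03% were called higher and 3.63% lower, and the median difference was -0.02. The 4 wild-type arrays did not overlap the 4 knockout arrays for 988 genes whatever their p (10.8%) and for 505 of the called genes (5.51% of all tested), 264 of these higher and 241 lower. Among the called genes 71 were at least 2-fold higher and 32 at least 2-fold lower. With 1 of the 8 arrays left out the count lay between 402 (without wild-type phenobarbital replicate 2) and 1051 (without knockout phenobarbital replicate 1), and it was 462 without wild-type TCPOBOP replicate 2. Whichever array was left out, 333 of the 702 were called. Without the knockout array that stood apart the count was 585, of which 480 were among the 702.

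The markers of CAR activity stood above the knockout level under both drugs. Cyp2b10, a cytochrome P450 and the classical CAR target, read 12.24 and 12.48 in wild type on TCPOBOP and 11.88 and 12.06 on phenobarbital, against 4.75 and 4.90 in knockout on TCPOBOP and 5.19 and 5.71 on phenobarbital. The groups were far apart, by 7.03 (SE 0.27, adjusted p = 5.01e-11), which is a 130.5-fold higher signal in wild type and the highest rise among the genes tested when each gene takes its brightest probe set. Its other probe sets gave 7.03 and 5.80, the second above the dim limit on all 24 arrays. Of its 4 knockout arrays 2 lay below the dim limit, the 40th percentile of all probe sets on an array, where RMA values compress folds.

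Cyp2c55, another P450, read 11.98 and 11.94 in wild type on TCPOBOP and 11.01 and 11.74 on phenobarbital, against 5.54 and 5.98 in knockout on TCPOBOP and 5.48 and 5.51 on phenobarbital. The groups did not overlap, and the difference was 6.04 (SE 0.31, adjusted p = 3.05e-09). Gstt3, a theta class glutathione transferase, read 9.05, 9.31, 8.54 and 9.18 in wild type, against 6.35, 6.80, 6.45 and 6.82 in knockout, each in the order TCPOBOP then phenobarbital. It rose by 2.41 (SE 0.18, adjusted p = 2.22e-07), and its groups did not overlap either. Rarb, the retinoic acid receptor beta, read 6.12, 6.49, 6.10 and 6.18 in wild type, against 4.61, 4.37, 4.94 and 4.29 in knockout. It rose by 1.67 (SE 0.13, adjusted p = 4.9e-07), and all 4 knockout arrays lay below the dim limit. These 4 genes were called whichever array was left out.

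**Figure D1:**
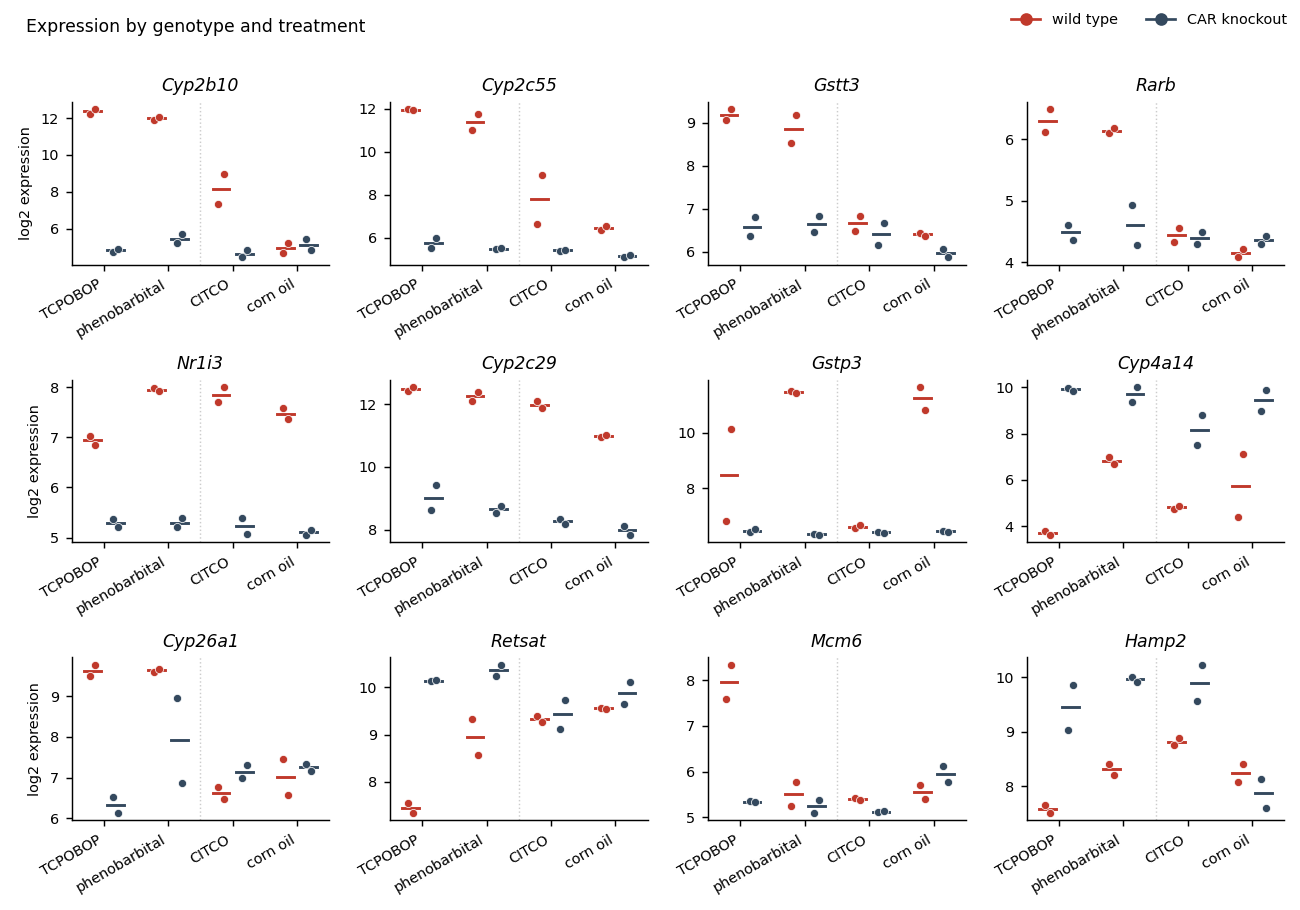
Log2 expression (y axis, scaled per gene) of 12 genes in wild-type (red, left) and CAR knockout mice (dark, right) under each treatment. Points are arrays and bars the mean of 2. Cyp2b10, Cyp2c55, Gstt3 and Rarb are high in wild-type mice on TCPOBOP and phenobarbital and low in the knockout groups, while Cyp2c29 and Nr1i3 are high in wild type under every treatment.

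Most of the P450s that were called were higher with the receptor. P450s and their partner proteins carry out the oxidising step that opens drug metabolism. Of 28 tested members of that list, 13 rose and 1 fell, with a median of 0.31. After Cyp2b10 and Cyp2c55 came 4 more Cyp2c genes, of which Cyp2c37 rose by 3.93, Cyp2c50 by 3.65, Cyp2c29 by 3.54 and Cyp2c54 by 3.39. Cyp1a2, which metabolises caffeine, rose by 0.96 (SE 0.15, adjusted p = 0.000615). Cyp3a11, the main target of the related receptor PXR, read 12.47, 12.62, 12.40 and 12.61 in wild type, against 12.09, 12.27, 11.92 and 12.24 in knockout. It rose by 0.39 (SE 0.11, adjusted p = 0.0331), a call that held in 3 of 8 cases with 1 array left out, although its groups did not overlap. The probe sets of Cyp2b10, Gstm3, Stmn1, Rdh9, Hamp and Hamp2 are of types that can also bind related transcripts, so their signal can include that of paralogs.

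Conjugation enzymes attach glutathione, glucuronic acid or sulfate to drugs, and most of those called were higher in wild type. Of 40 tested, 18 rose and 2 fell, and the median was 0.46. Gstm3, a mu class glutathione transferase, read 12.78 and 12.85 in wild type on TCPOBOP and 11.59 and 12.44 on phenobarbital, against 8.80 and 9.21 in knockout on TCPOBOP and 9.49 and 8.53 on phenobarbital. The groups lay apart by 3.41 (SE 0.25, adjusted p = 2.22e-07), and its other probe set gave 4.37. Gstm2, of the same class, rose by 2.56 (SE 0.22, adjusted p = 1.05e-06). Gstp3, a pi class member, read 6.81 and 10.14 in wild type on TCPOBOP and 11.53 and 11.44 on phenobarbital, against 6.31 to 6.50 on the 4 knockout arrays. One wild-type mouse on TCPOBOP lay close to the knockout level, and the difference was 3.59 (SE 0.43, adjusted p = 4.78e-05).

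Ces2a, Aox1, Cbr1 and Abcc3 were among the other enzymes and pumps that rose. Among 32 hydrolases and oxidoreductases 7 rose and 5 fell (median 0.11), with 12 and 3 without knockout phenobarbital replicate 1 and 5 and 1 without wild-type phenobarbital replicate 2. The carboxylesterase Ces2a read 12.91, 12.72, 12.23 and 12.37 in wild type, against 9.81, 10.58, 10.56 and 10.56 in knockout. It rose by 2.18 (SE 0.14, adjusted p = 3.81e-08). The aldehyde oxidase Aox1 rose by 0.96 and the carbonyl reductase Cbr1 by 0.90. Of 18 transporters 1 rose and 0 fell, and without knockout phenobarbital replicate 1 the count was 4. The one that rose was Abcc3, an efflux pump for conjugates, at 10.61, 10.61, 10.38 and 10.68 in wild type, against 9.09, 9.11, 9.47 and 9.39 in knockout. Its groups did not overlap, and the difference was 1.30 (SE 0.10, adjusted p = 4.07e-07).

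Cnmd and Gadd45b were among the highest rises outside drug metabolism. Cnmd, which encodes chondromodulin, read 7.76, 7.46, 7.45 and 7.60 in wild type, against 4.62, 5.00, 4.96 and 4.42 in knockout. It rose by 2.82 (SE 0.29, adjusted p = 9.73e-06), with 2.80 under TCPOBOP and 2.84 under phenobarbital, and its 4 knockout arrays lay below the dim limit. Gadd45b, a stress-induced gene whose protein is known to bind CAR, read 8.09, 7.92, 7.82 and 7.90 in wild type, against 5.38, 5.56, 5.69 and 6.88 in knockout. It rose by 2.05 (SE 0.20, adjusted p = 3.97e-06), and 1 knockout phenobarbital mouse lay above the other knockout mice. Its other probe sets gave -0.02 and 1.85. Of 22 early growth genes tested 2 rose, Gadd45b and Mdm2, and 1 fell, with a median of -0.04. The call of Mdm2 held in 2 of 8 cases with 1 array left out, and 4 of the list fell without knockout phenobarbital replicate 1.

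Genes of retinoid metabolism moved in both directions, with 2 of 25 tested called higher and 5 called lower. The shares over all genes tested were 4.03% and 3.63%. Retinoic acid, made from vitamin A by dehydrogenases, is sensed by RAR receptors such as Rarb and removed by Cyp26a1. Cyp26a1 read 9.49 and 9.78 in wild type on TCPOBOP and 9.61 and 9.68 on phenobarbital, against 6.51 and 6.13 in knockout on TCPOBOP and 8.97 and 6.88 on phenobarbital. The groups did not overlap, although 1 knockout phenobarbital mouse came close, and the difference was 2.52 (SE 0.34, adjusted p = 0.000171). The retinol dehydrogenases Rdh16f2 (-2.55, SE 0.21, adjusted p = 6.68e-07), Rdh9 (-1.62) and Rdh16 (-0.96) fell, as did the RXR alpha gene Rxra (-0.48), which was named after its values were seen. Retsat, the retinol saturase, read 7.55, 7.34, 9.33 and 8.56 in wild type, against 10.13, 10.15, 10.25 and 10.48 in knockout. It fell by 2.06 (SE 0.19, adjusted p = 2.03e-06), and the wild-type values were lower on TCPOBOP than on phenobarbital.

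The promoters of Rarb and Cyp26a1 are shown for a direct repeat with 5 bases between the half-sites. That is a spacing that RAR with RXR is known to bind. Among genes called higher, only the windows of these genes held it. The search, chosen after results had been seen, covered the half-site AGGTCA and its variants, the first being AGTTCA, the second being GGGTCA and the third being GGTTCA, in any pairing with 1, 3, 4 or 5 bases between them, on both strands of RefSeq windows from 250 bases before to 50 bases after a start site. Capitals mark the repeat, which begins at position -53 in Rarb (chr14:16575427-16575726, minus strand, GRCm38.p6) and at -32, on the opposite strand, in Cyp26a1 (chr19:37697558-37697857, plus strand, GRCm38.p6).
Rarb: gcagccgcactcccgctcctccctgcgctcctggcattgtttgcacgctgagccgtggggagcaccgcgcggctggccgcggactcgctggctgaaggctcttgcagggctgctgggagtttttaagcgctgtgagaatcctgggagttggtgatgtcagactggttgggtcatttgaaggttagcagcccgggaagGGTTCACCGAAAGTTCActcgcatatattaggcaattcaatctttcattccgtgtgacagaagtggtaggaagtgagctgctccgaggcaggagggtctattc
Cyp26a1: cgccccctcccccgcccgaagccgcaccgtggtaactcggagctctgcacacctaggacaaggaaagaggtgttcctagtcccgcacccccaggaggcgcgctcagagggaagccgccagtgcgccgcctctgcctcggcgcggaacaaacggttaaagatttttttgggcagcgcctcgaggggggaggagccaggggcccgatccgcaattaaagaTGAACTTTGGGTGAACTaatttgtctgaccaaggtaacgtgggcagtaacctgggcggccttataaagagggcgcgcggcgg
The repeat was found in 2 of 380 windows of genes called higher (0.526%, with 308 of 369 genes matched), in 0 of 344 windows of genes called lower and in 32 of all 32851 windows (0.0974%). Of the 9484 windows of genes tested 3 held it (0.0316%). A spacing that CAR with RXR is known to bind has 4 bases between the half-sites. Such a repeat was found in 0 windows of genes called higher, 0.0211% of windows of genes tested and 0.0822% of all windows. Which receptors bind the repeats printed above was not tested. No match says only that these letters are not in these windows.

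Some cell cycle genes rose. Of 23 tested S phase genes 9 rose and 0 fell (median 0.28), and of 20 tested mitosis genes 9 rose and 0 fell (median 0.30). A fit of the 8 arrays alone with drug as an additive term called 0 S phase and 3 mitosis genes higher, and with 1 array left out of the fit of all groups the counts were 8 to 12 and 8 to 9. Mcm6, a subunit of the helicase that opens DNA for replication, read 7.59 and 8.33 in wild type on TCPOBOP and 5.24 and 5.76 on phenobarbital, against 5.35 and 5.33 in knockout on TCPOBOP and 5.10 and 5.38 on phenobarbital. The TCPOBOP mice stood clear of the knockout level, and the phenobarbital mice overlapped it. Cdk1, the kinase that drives entry into mitosis, read 6.80 and 6.71 in wild type on TCPOBOP and 5.54 and 5.70 on phenobarbital, against 5.03 to 5.27 on the 4 knockout arrays. The genotype difference under TCPOBOP minus that under phenobarbital was 2.36 for Mcm6 (adjusted p = 0.00176) and 1.12 for Cdk1 (adjusted p = 0.0159). It was 1.88 for Birc5, an inhibitor of apoptosis needed for cell division (adjusted p = 2.4e-05), and 1.54 for the proliferation marker Mki67 (adjusted p = 0.00228). These calls held whichever array was left out for Mcm6, Birc5 and Mki67 and in 4 of 8 cases for Cdk1. Birc5 and Mki67 lay below the dim limit on 2 of 4 wild-type and all 4 knockout arrays.

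The mean level of each list on each array split in the same way. The S phase mean was 6.36 and 6.51 in wild type on TCPOBOP and 5.74 and 5.78 on phenobarbital, against 5.59 to 5.73 on the 4 knockout arrays. The mitosis mean was 6.07 and 5.92 in wild type on TCPOBOP and 5.29 and 5.41 on phenobarbital, against 5.16 to 5.26 in knockout. Under TCPOBOP alone 13 S phase genes were called higher (median 0.57), and under phenobarbital alone 0 were called higher and 1 lower (median 0.04). For mitosis genes 9 were called higher under TCPOBOP (median 0.47) and 1 under phenobarbital (median 0.09). That gene was Stmn1, a regulator of microtubules, which rose by 0.98 under phenobarbital, a call that held in 2 of 4 cases.

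The promoter of Mcm6 is shown as an example of the E2F site, the element through which E2F factors are known to switch on replication genes. Capitals mark the matches to the E2F letters TTTCGCGC or to the variant TTTGGCGC on either strand, of which 2 overlap, in chr1:128359656-128359955 (minus strand, GRCm38.p6).
Mcm6: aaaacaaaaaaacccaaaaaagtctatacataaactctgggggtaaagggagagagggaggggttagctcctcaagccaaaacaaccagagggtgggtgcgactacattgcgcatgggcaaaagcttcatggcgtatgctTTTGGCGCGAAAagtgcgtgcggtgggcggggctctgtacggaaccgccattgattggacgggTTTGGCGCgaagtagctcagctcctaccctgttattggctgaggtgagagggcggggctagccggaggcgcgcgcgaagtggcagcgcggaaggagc
Of 23 windows of tested S phase genes 8 held at least 1 match (34.8%), against 1.48% of the windows of all genes tested and 0.813% of all windows. Among mitosis genes 1 of 20 windows held one, that of Cdk1. The share was 2.11% among windows of genes called higher and 2.03% among those called lower.

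**Figure D2:**
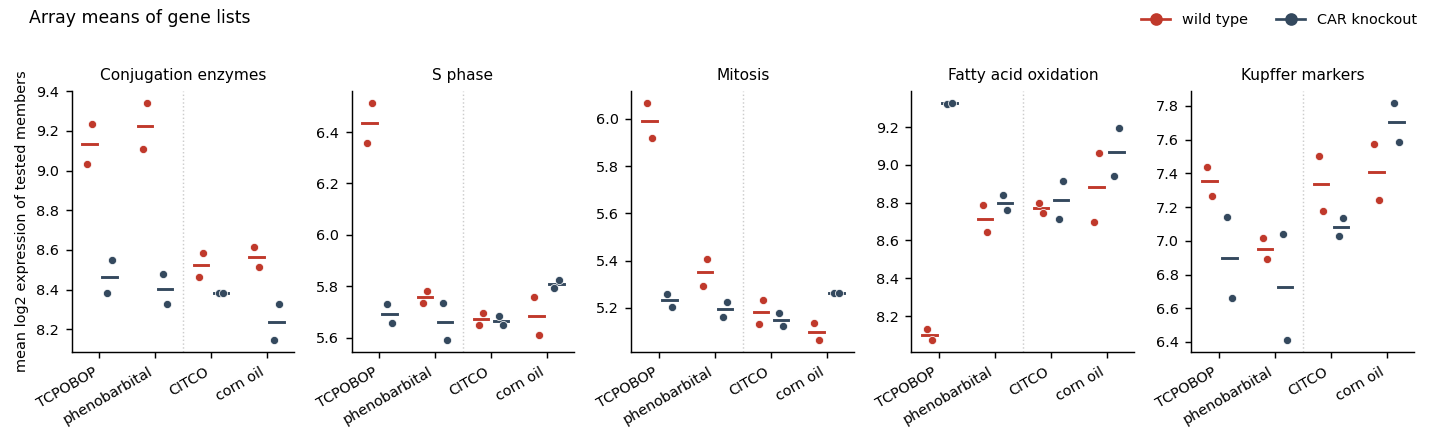
Mean log2 expression of the tested members of 5 gene lists (y axis, scaled per list) on each array, wild type in red on the left and CAR knockout dark on the right, with bars for the mean of 2 arrays. S phase and mitosis means are highest in wild-type mice on TCPOBOP, and the fatty acid oxidation mean is lowest there, at 8.13 and 8.07.

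Most of the fatty acid oxidation genes tested fell. Their enzymes break down fatty acids in mitochondria and peroxisomes. Of 32 tested 19 fell and 0 rose, with a median of -0.52, and with 1 array left out 13 to 19 fell. In the fit of the 8 arrays with drug as an additive term 8 fell. Cyp4a14, a fatty acid hydroxylase, read 3.77 and 3.62 in wild type on TCPOBOP and 6.98 and 6.67 on phenobarbital, against 9.99 and 9.86 in knockout on TCPOBOP and 9.37 and 10.02 on phenobarbital. Both wild-type TCPOBOP arrays lay below the dim limit, and the difference of -4.55 (SE 0.55, adjusted p = 4.7e-05) was the deepest fall among the genes tested. Ech1, an enzyme of beta oxidation, read 8.06, 8.05, 9.06 and 8.74 in wild type, against 9.98, 9.74, 9.37 and 9.51 in knockout. Its groups did not overlap, and it fell by 1.17 (SE 0.18, adjusted p = 0.000557). Acot1, a thioesterase, fell by 1.28, and Cpt1a, which brings fatty acids into mitochondria, by 0.89. The list mean was 8.13 and 8.07 in wild type on TCPOBOP and 8.79 and 8.64 on phenobarbital, against 9.32 and 9.33 in knockout on TCPOBOP and 8.84 and 8.76 on phenobarbital. Under TCPOBOP alone 28 of 32 were called lower (median -0.92) and under phenobarbital alone 0 (median -0.14). On corn oil 0 were called (median -0.05), although the lowest difference among the members was -3.70. The list mean there was 8.70 and 9.06 in wild type, against 8.94 and 9.19 in knockout. For the genotype difference under the activators minus that on corn oil 1 of 32 was called lower (median -0.47). No member lay below -1.13 in that test, and Cyp4a14 was not called there. Most of the difference of Cyp4a14 with the activators was thus also there on corn oil, although it was not called on corn oil.

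A few genes of lipogenesis and of glucose metabolism were called, more of them lower than higher. Over all genes tested 4.03% were called higher and 3.63% lower. Lpin1, a phosphatidate phosphatase, read 6.25, 7.07, 5.92 and 5.95 in wild type, against 7.91, 9.16, 8.51 and 8.65 in knockout. The groups did not overlap, and it fell by 2.26 (SE 0.43, adjusted p = 0.00292). Of 24 lipogenesis genes 1 rose, the desaturase gene Fads1 (0.67), and 3 fell (median -0.34), with 6 falling without knockout phenobarbital replicate 2. Of 19 cholesterol synthesis genes 0 rose and 2 fell, Hsd17b7 and Srebf2, whose calls held in 1 of 8 and 2 of 8 cases (median -0.52). Without knockout phenobarbital replicate 2 that count was 10, without wild-type TCPOBOP replicate 1 it was 1, and without any other single array it was 0. Without knockout phenobarbital replicate 1 the median was -0.04. Of 19 bile acid genes 0 rose and 0 fell by limma, and 2 rose without knockout phenobarbital replicate 1. Cyp7a1, which sets the rate at which bile acids are made, read 9.47, 9.34, 9.19 and 8.42 in wild type, against 10.29, 9.28, 10.33 and 6.80 in knockout. The groups overlapped widely, with a difference of -0.07 (SE 0.58, adjusted p = 0.974). Of 16 gluconeogenesis and glycogen genes 1 rose, the glycogen phosphorylase gene Pygl (0.54), and 3 fell, among them the glycogen synthase gene Gys2 (-0.78). Between 1 and 5 fell with 1 array left out, the most without knockout phenobarbital replicate 1. Pck1, a key enzyme of gluconeogenesis, differed by -0.36 (SE 0.47, adjusted p = 0.762).

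Among receptors and liver factors 1 of 34 rose and 2 fell, with 3 and 4 without knockout phenobarbital replicate 1. Ahr, the receptor for dioxin-like compounds, read 7.69, 8.18, 7.59 and 7.74 in wild type, against 6.72, 6.32, 6.89 and 6.75 in knockout. It rose by 1.13 (SE 0.23, adjusted p = 0.00493), and the groups did not overlap. The liver factor gene Foxa3 fell by 0.95 (SE 0.19, adjusted p = 0.00517). Of 27 acute phase genes 0 rose and 4 fell (median -0.22), and with 1 array left out 1 to 7 fell, with the highest count without knockout phenobarbital replicate 1 and the lowest without knockout replicate 2 of either drug. Itih3, a serum protein gene, fell by 0.82 (SE 0.11, adjusted p = 0.000163). Hepcidin, the hormone that limits iron uptake, has the genes Hamp and Hamp2 in mice. Hamp2 read 7.66, 7.52, 8.41 and 8.22 in wild type, against 9.04, 9.86, 10.01 and 9.92 in knockout. The groups did not overlap, and it fell by 1.76 (SE 0.24, adjusted p = 0.000164), while its other probe set, dimmer, gave 0.04. Hamp fell by 1.19, a call held in 3 of 8 cases. Of 18 interferon genes 2 rose, and with 1 array left out 0 to 1 rose, the fewest without knockout TCPOBOP replicate 2. Of 24 endoplasmic reticulum stress genes 1 rose and 1 fell, with 4 and 3 without knockout phenobarbital replicate 1 and 0 and 0 without replicate 2. Of 16 male-biased genes 3 rose (2 to 5 with 1 array left out), and of 16 female-biased genes 3 rose and 4 fell (2 to 3 and 2 to 4).

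Cap1, Rab30, Foxq1 and Bhmt were among further genes that fell by over 2-fold. Cap1, an actin regulator, read 5.83, 5.66, 5.86 and 5.64 in wild type, against 7.20, 7.41, 7.61 and 7.42 in knockout. It fell by 1.66 (SE 0.36, adjusted p = 0.0074), and both groups were narrow. Rab30, a small GTPase, fell by 1.29 and lay below the dim limit on all 4 wild-type arrays, and the transcription factor gene Foxq1 fell by 1.27. Bhmt, which makes methionine from homocysteine, read 10.65, 10.44, 10.89 and 10.63 in wild type, against 11.56, 11.66, 11.93 and 12.07 in knockout. It fell by 1.15 (SE 0.12, adjusted p = 6.82e-06), and like the other 3 genes its groups did not overlap. The remaining genes among the 15 lowest without overlap were Abhd1 (-1.64), the fatty acid binding protein gene Fabp5 (-1.61), the transcription factor gene Klf10 (-1.40), the co-chaperone gene Fkbp5 (-1.25), the G protein regulator gene Rgs16 (-1.22) and Cox6b2 (-1.18), which encodes a subunit of cytochrome c oxidase. With 1 array left out the calls of Cap1, Rab30, Foxq1, Bhmt and Cox6b2 held each time, and the others held in 5 of 8 cases for Abhd1, 1 of 8 for Fabp5, 1 of 8 for Klf10, 7 of 8 for Fkbp5 and 2 of 8 for Rgs16.

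Markers of other liver cells were called about as often as all genes, at 5 of 73 tested (6.85%), against 7.66% of all genes tested. Of 17 Kupffer cell markers 2 rose and 0 fell (median 0.37), Cd5l by 0.98 and Adgre1 by 0.36, and 7 rose without knockout phenobarbital replicate 1. The call of Adgre1 held in 1 of 8 cases, and the fit of the 8 arrays with drug as an additive term called 0 higher. Their mean level was 6.89 to 7.44 in wild type and 6.41 to 7.14 in knockout. Of 16 endothelial markers 0 rose and 0 fell, and of 15 stellate cell markers 1 rose, Vim (0.47), a call that held in 0 of 8 cases. Endothelial markers that rose numbered 2 without knockout phenobarbital replicate 1. Bile duct markers had 5 of 12 members tested, and 4 lay below the dim limit on all 24 arrays. Of the bile duct markers Prom1 alone was called. Of 8 lymphocyte and 10 neutrophil markers 0 were called, and of 2 red cell markers 1 rose (0 to 1 with 1 array left out).

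**Figure D3:**
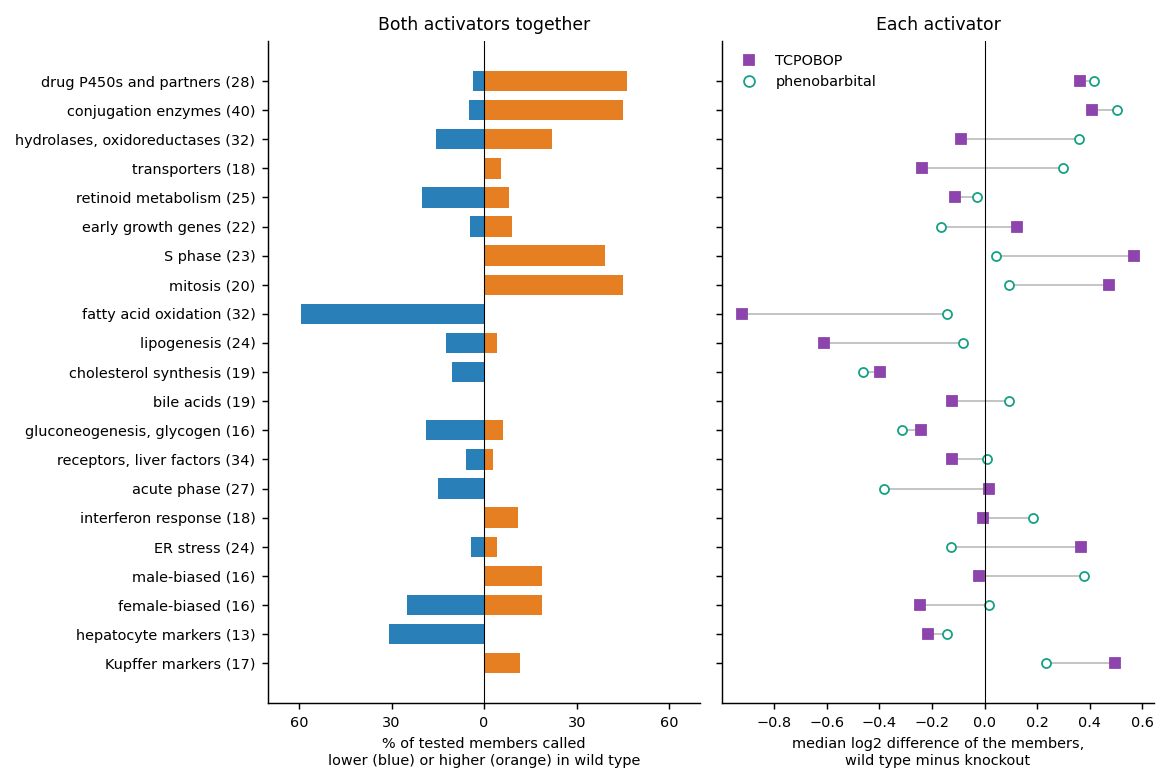
Left, share of tested members (number in brackets) called higher (orange) or lower (blue) in wild type than in knockout with both activators together. Right, median log2 difference of each list under TCPOBOP (squares) and phenobarbital (circles). For fatty acid oxidation 19 of 32 members are called lower, and the medians are -0.92 under TCPOBOP and -0.14 under phenobarbital.

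The genotypes were next compared under each drug alone, with no array in common between the drugs. Under TCPOBOP 676 genes were called (7.37%), 360 higher and 316 lower. With 1 of the 4 arrays left out the count was 389 and 310 (wild-type replicates 1 and 2) and 314 and 349 (knockout replicates 1 and 2). Under phenobarbital 126 were called (1.37%), 81 higher and 45 lower. Leaving out wild-type replicates 1 and 2 in turn gave 43 and 34, and leaving out knockout replicates 1 and 2 gave 615 and 35. Both comparisons called 77 genes, 61.1% of the phenobarbital calls and 11.4% of the TCPOBOP calls, and all 77 had the same sign. Of the 702 genes called with both drugs together, 674 had the same sign under each drug, a count to which the choice of the 702 by the mean of both contributes. Their median size was 0.66 under TCPOBOP and 0.39 under phenobarbital.

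**Figure D4:**
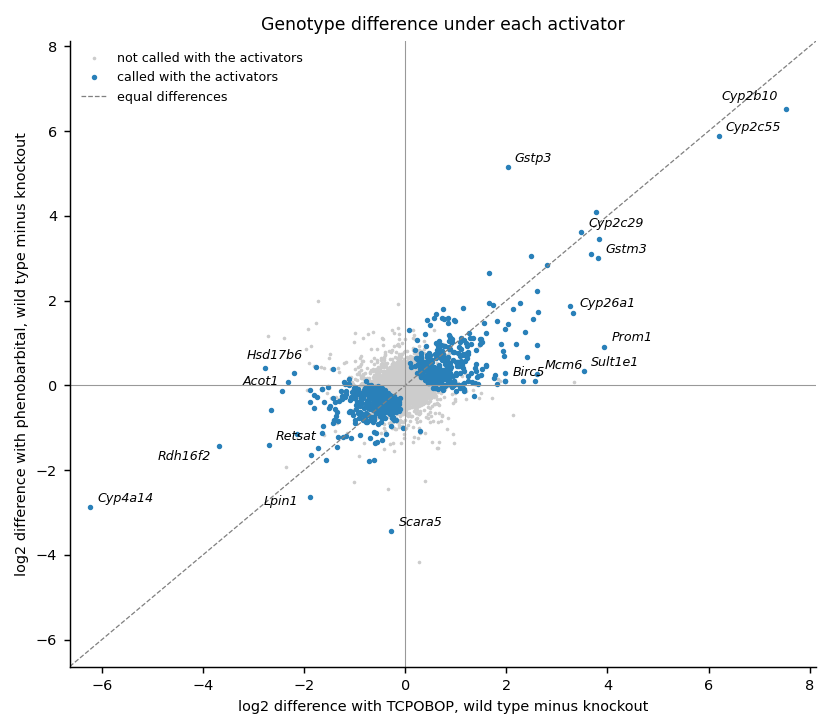
Log2 difference, wild type minus knockout, under TCPOBOP (x axis) and under phenobarbital (y axis) for each of 9167 genes. The 702 genes called with both activators together are blue, and the dashed line marks equal differences. Cyp2b10 lies at 7.53 under TCPOBOP and 6.52 under phenobarbital, and Sult1e1 at 3.53 and 0.34.

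TCPOBOP and phenobarbital also differed in dose and in the number and timing of injections, which cannot be told apart from the drug. A test of the difference between the drugs called 86 genes (0.938%), 50 with a higher and 36 with a lower value under TCPOBOP. Without wild-type TCPOBOP replicates 1 and 2 it called 51 and 40, and without knockout TCPOBOP replicates 1 and 2 it called 34 and 54. Without wild-type phenobarbital replicates 1 and 2 it called 24 and 45, and without knockout phenobarbital replicates 1 and 2 it called 261 and 43. Only a small part of the list thus rests on no single array, and 23 genes were called in every case. Prom1, known as a stem cell and bile duct surface protein, read 8.13 and 7.81 in wild type on TCPOBOP and 4.35 and 5.45 on phenobarbital, against 3.78 to 4.29 on the 4 knockout arrays, all below the dim limit. The drugs differed by 3.02 (SE 0.38, adjusted p = 0.000741). Sult1e1, the estrogen sulfotransferase, read 6.60 and 8.93 in wild type on TCPOBOP and 4.56 and 5.22 on phenobarbital, against 4.11 to 4.78 in knockout. Its TCPOBOP mice were far apart, and the drug difference of 3.20 (SE 0.65, adjusted p = 0.0265) was called in 4 of 8 cases with 1 array left out. Rdh16 read 4.58 and 4.51 in wild type on TCPOBOP and 6.58 and 6.30 on phenobarbital, against 6.99 and 6.52 in knockout on TCPOBOP and 6.45 and 5.86 on phenobarbital. Its wild-type TCPOBOP mice were the low ones, and the drugs differed by -2.49 (SE 0.37, adjusted p = 0.00228). Rdh16f2 differed between the drugs by -2.25 (adjusted p = 0.018), called in 4 of 8 cases. Among other genes with the largest drug differences, Phlda1 (-3.52) and the transporter gene Abca8a (-2.82) were called each time, and the pantetheinase gene Vnn1 (-3.88) and Hsd17b6 (-3.19) in 1 of 8 cases each. For Cyp2b10 the drug difference was 1.01 (SE 0.54, adjusted p = 0.499) and for Cyp2c55 0.32 (SE 0.62, adjusted p = 0.894), and neither passed.

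The genotypes already differed on corn oil. There 21 genes were called (0.229%), 13 higher and 8 lower in wild type, and without wild-type replicate 1, knockout replicate 1 or knockout replicate 2 the counts were 7, 4 and 12. Of the 21, 12 were also called with the same sign under the activators, 57.1% of the corn oil calls and 1.71% of the 702. They were Cyp2c29, Cyp2c37, Cyp2c50, Cyp2c54, Elovl3, Gstp3, Nr1i3, Hprt, Ppm1m and Selenbp1 on the higher side and Rdh16f2 and Avpr1a on the lower, of which Hprt, Ppm1m and Selenbp1 were named after their values were seen. The corn oil calls of Cyp2c29, Gstp3 and Nr1i3 held whichever array was left out, whereas that of Elovl3, a fatty acid elongase, held in 1 of 4 cases, those of Cyp2c37 and Avpr1a in 0 of 4 each, that of Rdh16f2 in 1 of 4, and those of Cyp2c50 and Cyp2c54 in 2 of 4 each. The call of Avpr1a under the activators held in 2 of 8 cases. Of these 12 genes 6 lie on chromosome 19 in the RefSeq gene table, the Cyp2c genes, Elovl3 and Gstp3. There lie 3.89% of all genes tested and 5.27% of the 702. The Cyp2c genes belong to 1 family, so the 6 are not independent members. Cyp2c29 read 10.97 and 11.02 in wild type on corn oil, against 8.13 and 7.83 in knockout. With the drugs it read 12.44, 12.56, 12.11 and 12.40 in wild type, against 8.64, 9.41, 8.53 and 8.76 in knockout. Its difference was thus 3.02 on corn oil and 3.54 with an activator. Over the 702 genes the median size of the difference was 0.53 with the activators, which chose them, and 0.15 on corn oil.

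Called on corn oil and not under the activators were 8 genes, among them Cyp4a12a and Marco. Cyp4a12a, a male-biased fatty acid hydroxylase, read 10.57 and 10.10 in wild type on corn oil, against 7.53 and 7.63 in knockout. With the drugs it read 11.01, 10.61, 10.38 and 10.36 in wild type, against 10.46, 10.76, 9.53 and 9.01 in knockout. The groups overlapped there, and the difference was 0.65 (SE 0.21, adjusted p = 0.0762). Marco, a macrophage scavenger receptor, read 5.98 and 5.16 in wild type on corn oil, against 7.33 and 7.28 in knockout, and with the drugs 5.11 to 5.86 in wild type, against 5.63 to 5.88 in knockout. For both genes the knockout mice on corn oil stood apart from the other groups given here. The remaining gene of the corn oil calls, D17H6S56E-5, was called under the activators with the opposite sign. Its difference was -0.86 on corn oil and 1.33 with the activators.

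**Figure D5:**
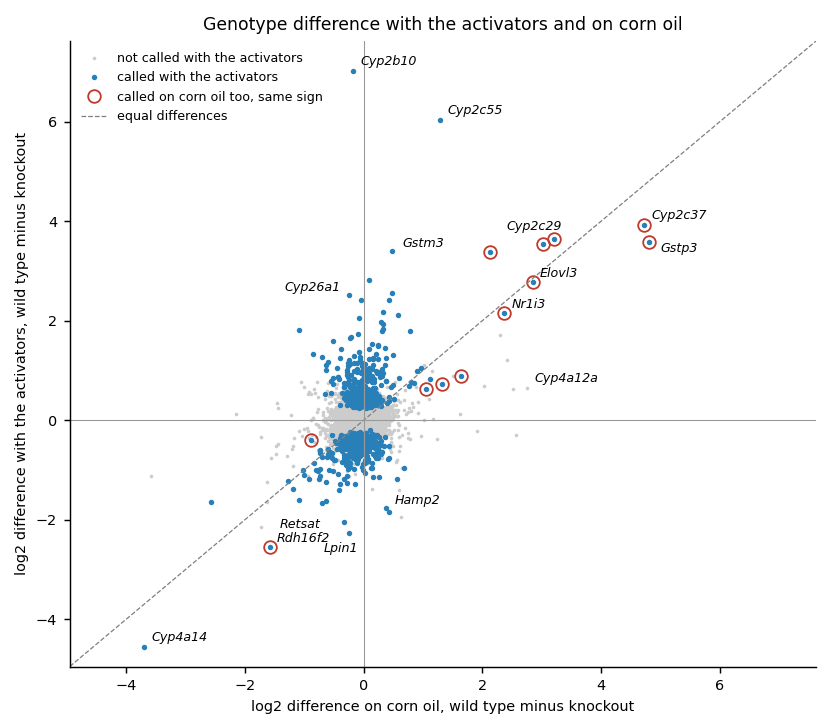
Log2 difference, wild type minus knockout, on corn oil (x axis) and with the activators (y axis) for each of 9167 genes. Blue points are the 702 genes called with the activators, red rings the 12 also called on corn oil with the same sign, and the dashed line marks equal differences. Cyp2b10 lies at -0.17 on corn oil and 7.03 with the activators, and Elovl3 at 2.85 and 2.77.

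The genotype difference under the activators was tested directly against that on corn oil. Here 98 genes were called (1.07%), 79 with a higher and 19 with a lower difference under the activators. Leaving out 1 of the 12 arrays gave between 47 (without knockout corn oil replicate 1) and 180 (without knockout phenobarbital replicate 1). Without wild-type phenobarbital replicate 2 the count was 60, without wild-type corn oil replicates 1 and 2 it was 54 and 56, and without knockout corn oil replicate 2 it was 48. Of the 98, 89 were among the 702 with the same sign. Both comparisons share the arrays with the activators, which contributes to that count. Cyp2b10 (7.20, SE 0.47, adjusted p = 3.75e-07), Cyp2c55 (4.75), Gstt3 (1.98) and Rarb (1.89) were called whichever of the 12 arrays was left out. So were Gstm3 (2.93), the chemokine gene Ccl9 (2.91), Prom1 (2.48), Gadd45b (2.13), Ces2a (1.86) and, on the lower side, Bhmt (-1.41). Cnmd (2.73) was called in 9 of 12 cases, Retsat (-1.73) in 9 of 12 and Cyp26a1 (2.76) in 5 of 12. Ccl9 read 10.91, 10.97, 9.41 and 9.89 in wild type, against 8.30, 8.85, 8.83 and 7.97 in knockout with the drugs, and on corn oil 8.03 and 8.21 in wild type, against 9.03 and 9.40 in knockout. Wild type was the higher with the drugs and the lower on corn oil.

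CITCO, at its own dose, called 20 genes between wild type and knockout (0.218%), 12 higher and 8 lower. The count was 8 and 8 without wild-type replicates 1 and 2 and 6 without knockout replicate 2. Cyp2b10 read 7.36 and 8.98 in wild type on CITCO, against 4.45 and 4.82 in knockout. The difference of 3.53 (SE 0.38, adjusted p = 0.000218) ran from 2.73 to 4.34 with 1 array left out and was called each time. Cyp2c55 read 6.66 and 8.90 in wild type on CITCO, against 5.40 and 5.43 in knockout, and its call held in 1 of 4 cases. Rarb read 4.34 and 4.56 in wild type on CITCO, against 4.30 and 4.49 in knockout, and Gstt3 read 6.49 and 6.82 in wild type, against 6.16 and 6.66 in knockout. For Rarb and Gstt3 the genotypes overlapped on CITCO. Of the 20 genes 13 were also called with the same sign under the activators.

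Few genes were called between knockout mice on TCPOBOP or phenobarbital and those on corn oil, and the count depended on single arrays. Against corn oil within the knockout, 41 genes were called (0.447%), 10 higher and 31 lower with the drugs. The count was 342 and 14 without phenobarbital replicates 1 and 2, 18 without TCPOBOP replicate 2, and 3 and 4 without corn oil replicates 1 and 2. A fit of only the arrays of this comparison called 3 genes. Of the 41, 10 were among the 702, and 7 of these had the opposite sign there. Both comparisons share the knockout arrays with the drugs. The largest called rise within the knockout was that of Cyp4a12a, at 2.36 (adjusted p = 0.000797), and Cyp2c29 rose by 0.86 (adjusted p = 0.0274). Hamp2 read 9.04, 9.86, 10.01 and 9.92 in knockout with the drugs, against 8.13 and 7.61 in knockout on corn oil, a difference of 1.84 (SE 0.29, adjusted p = 0.00891) called in 4 of 6 cases. In wild type it read 7.66, 7.52, 8.41 and 8.22 with the drugs, against 8.09 and 8.40 on corn oil. Of 17 Kupffer cell genes 5 fell in knockout with the drugs (median -1.02), among them Cd5l (-1.38), C1qc (-1.28), Cd68 (-1.17) and Marco (-1.52). With 1 array left out the calls of Cd5l and C1qc held in 2 of 6 cases and those of Cd68 and Marco in 4 of 6. The mean of the list was 6.41 to 7.14 in knockout with the drugs, against 7.82 and 7.58 in knockout on corn oil. In wild type it was 6.89 to 7.44 with the drugs, against 7.58 and 7.24 on corn oil. Abcc3 rose in knockout by 0.88 (SE 0.12, adjusted p = 0.00652), called in 5 of 6 cases. The differences of Cyp2b10 (0.02), Cyp2c55 (0.47), Gstt3 (0.64) and Rarb (0.18) did not pass, with adjusted p-values of 0.974, 0.509, 0.156 and 0.557.

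Genes close to Nr1i3 on chromosome 1 were looked at apart, because DNA around a deleted gene often comes from the strain in which the deletion was made. Of 80 genes within 5 Mb on the array 57 were tested, of which 4 rose and 2 fell under the activators, with a median of 0.01, and 3 to 6 rose and 1 to 2 fell with 1 array left out. Under the activators 4.03% of all genes tested were called higher and 3.63% lower. Rgs5, a regulator of G protein signalling, read 6.51, 6.06, 6.20 and 5.96 in wild type, against 6.88, 6.93, 7.46 and 6.91 in knockout. On corn oil it read 6.54 and 6.47 in wild type, against 7.25 and 7.42 in knockout. It fell by 0.86 with the activators (SE 0.15, adjusted p = 0.00126), and the corn oil difference was -0.83 (SE 0.21, adjusted p = 0.236). Its other probe sets gave 0.20, -1.57 and -0.35. Tagln2 rose by 0.54, with 1.07 under TCPOBOP and 0.01 under phenobarbital. On corn oil 0 of the neighbours were called higher and 0 lower by limma.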

How the data were processed

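The deposited table held log2 expression values of 22690 probe sets on 24 Affymetrix arrays, which the authors had obtained by RMA under R 2.15.0, per the submitters' processing notes. Array medians ran from 5.41 to 5.51, and 0 values were missing, so no further normalisation was applied. Total RNA had been extracted with TRIzol, per the labels' protocols. The sources used here give no scan dates or litters.

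Of the probe sets, 64 were controls, 20380 had 1 gene symbol in the platform annotation, 691 several and 1555 none listed. By gene ID 20351 were matched to the RefSeq table of GRCm38.p6, and 0 symbols changed. Each of 12393 genes took its brightest probe set by mean over all arrays. The 9167 genes above the 40th percentile of an array on at least 2 arrays were tested with limma 3.58.1 in R 4.3.3, by contrasts of 12 group means with 12 residual degrees of freedom, in 8 comparisons. The scripts were tested on simulated data.

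The groups come from the labels. The comparison's members and the gene lists were chosen with earlier results of these data known. Genes were named by rule: 12 whatever their p (Nr1i3, Cyp2b10, Cyp2c55, Gstt3, Rarb, Cyp3a11, Cyp1a2, Cyp7a1, Pck1, Gadd45b, Abcc3 and Cyp4a12a), the 15 highest and 15 lowest called genes without overlap, up to 4 called members of each list, the 5 highest and 5 lowest called in each other comparison, and called neighbours of Nr1i3 within 5 Mb. Not every gene that the rule covers is named. Alternatives covered the filter, scaling, probe set choice, prior, weights, arrays fitted, a replicate block and single arrays left out. Promoter windows come from RefSeq.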

Additional observations from a re-analysis of the deposited data

Results flagged for a closer look

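The genes looked at here were the 39 of the activators comparison that were named whatever their p or were among the 15 highest and 15 lowest. In 3 of their 78 groups of 4 arrays, 1 array lay far from the other 3, where chance gives about 5%. Cyp2c55 read 5.98 in the knockout TCPOBOP mouse of replicate 2, against 5.48 to 5.54 in the other 3 knockout mice with a drug. Ces2a read 9.81 in the knockout TCPOBOP mouse of replicate 1, against 10.56 to 10.58 in the other 3. Hamp2 read 9.04 in that same mouse, against 9.86 to 10.01 in the other 3.

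By a test of the difference itself 0.938% of all genes tested were called. Among these 39 genes the genotype difference was not the same under both drugs for 2. It was higher under TCPOBOP by 3.02 for Prom1 (adjusted p = 0.000741) and lower, at -2.25, for Rdh16f2 (adjusted p = 0.018). Other genes named in the text, such as Mcm6 and Birc5, passed that test too.

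Of all genes tested 1.07% were called for the genotype difference under the activators minus that on corn oil. Most of the 39 genes were chosen by their difference under the activators, which is part of this test. The genotype difference under the activators departed from that on corn oil for 16 of the 39 genes. It was higher for Cyp2b10 (7.20), Cyp2c55 (4.75), Gstm3 (2.93), Cyp26a1 (2.76), Cnmd (2.73), Prom1 (2.48), Gadd45b (2.13), Gstm2 (2.08), Gstt3 (1.98), Rarb (1.89), Ces2a (1.86), Cyp1a2 (1.25) and Abcc3 (0.81). It was lower for Hamp2 (-2.13), Cyp4a12a (-2.11) and Retsat (-1.73). With 1 of 12 arrays left out the call held in 9 of 12 cases for Gstm2, 10 of 12 for Hamp2, 10 of 12 for Cyp4a12a, 3 of 12 for Cyp1a2 and 3 of 12 for Abcc3. Of the other genes named in the text Ccl9 and Bhmt also passed.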

How the results depend on the processing

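With a 2-fold limit added the counts of called genes were 103 with both activators, 193 under TCPOBOP, 56 under phenobarbital, 57 between the drugs, 56 for activators against corn oil and 16 within the knockout. A fit of the 8 arrays with drug as an additive term called 305 with both activators. With array weights the counts were 1027 under TCPOBOP, 58 under phenobarbital, 128 on CITCO, 43 on corn oil, 184 for activators against corn oil and 243 within the knockout. With only the arrays of a comparison they were 1022 under TCPOBOP, 25 under phenobarbital, 49 between the drugs, 45 on CITCO, 47 on corn oil and 3 within the knockout. Without the knockout phenobarbital array that stood apart they were 35 under phenobarbital, 43 between the drugs and 14 within the knockout. Without it and 1 human CAR array that also stood apart they were 1020 under TCPOBOP, 68 under phenobarbital and 32 on CITCO. The mean of a gene's probe sets gave 12 on corn oil, and cyclic loess scaling gave 73 within the knockout. Under cyclic loess the share of higher calls was 74.4% under phenobarbital, against 64.3% with the deposited scaling, and 44.0% between the drugs, against 58.1%. The causes were not tested.

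With single arrays left out the counts ran from 402 to 1051 with both activators, 310 to 389 under TCPOBOP, 34 to 615 under phenobarbital, 24 to 261 between the drugs, 6 to 15 on CITCO, 4 to 15 on corn oil, 47 to 180 for activators against corn oil and 3 to 342 within the knockout. Where a group is left with 1 array, its spread is taken to be that of the other groups. Among values of the 39 genes named whatever their p or by rank under the activators, over all alternatives, 727 kept their sign and side of the threshold, 47 lost the call, 2 gained it and 3 turned sign. Of the 99 called genes that the naming rule covers under the activators, 64 were called whichever array was left out. The 3 values that turned sign were of Cyp7a1, which ran from -0.96 to 0.81 with single arrays left out and stood at 0.12 without wild-type phenobarbital replicate 2, 0.81 without knockout phenobarbital replicate 1 and 0.18 without knockout TCPOBOP replicate 1.

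Replicate numbers were not used to pair the arrays in the main fit. Across genes, deviations of same-numbered arrays correlated at 0.341 between wild type on TCPOBOP and wild type on phenobarbital. The other pairs of groups lay between -0.045 and 0.092. Whether same-numbered wild-type arrays shared a batch was not tested. With the replicate block the counts were 733 with both activators, 685 under TCPOBOP, 125 under phenobarbital, 92 between the drugs, 19 on CITCO, 21 on corn oil, 97 for activators against corn oil and 66 within the knockout. Genes near the dim limit have compressed folds, which bears most on those with dim knockout arrays, such as Rarb, Cnmd, Prom1 and Birc5.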
